A study of Homo sapiens with 6 samples.

Results

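The genes described here are 38 named genes of the hypoxia response and of glycolysis, read in HEK293 cells treated with an inhibitor of phosphatidylinositol 4-kinase alpha (PI4KA). They were taken from the deposited count table by gene symbol, and all 38 were found among its 63140 genes. They comprised 5 genes for subunits and oxygen sensors of the hypoxia-inducible factor (HIF), 17 glycolytic enzymes, 6 transporters and flux regulators, and 10 other HIF targets. HEK293 is an established human cell line of embryonic kidney origin, grown here with serum, and the labels name no low-oxygen arm. One group of 3 libraries came from confluent cells given 100 nM GSK-A1, a small-molecule inhibitor of PI4KA, for 24 h. The other 3 libraries came from cells labelled DMSO, the solvent, whose time was taken as the same 24 h from the shared protocol. The labels name no transgene or deletion in either group.

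HIF is a pair of proteins, an oxygen-regulated alpha subunit and the stable beta subunit ARNT. When oxygen is present, prolyl hydroxylases of the EGLN family mark the alpha subunit for destruction, so that HIF activity is set largely by protein stability, which mRNA does not report. Stable HIF raises transcription of glucose transporters, of most glycolytic enzymes and of genes for blood vessel growth, pH control, collagen hydroxylation and mitochondrial turnover. Glycolysis splits glucose into pyruvate in the cytosol, and lactate dehydrogenase turns pyruvate into lactate, which leaves the cell.

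The libraries held 33040178 to 47777233 counts, and the 38 genes took 1.10% to 1.19% of them. PI4KA mRNA was at 179 to 188 CPM in the DMSO libraries and at 171 to 184 CPM in the GSK-A1 libraries, where CPM is the edgeR unit of a gene's count set against the scaled total of its library. The HEK293 markers NEFL, VIM, KRT8, KRT18, LHX1 and PAX2 were present, with NEFL at 713 to 794 CPM. PAX2 was at 2.62 to 2.78 CPM with DMSO and 1.93 to 2.04 CPM with GSK-A1. From DMSO to GSK-A1, VIM was at 1050 to 1120 and 1180 to 1280 CPM, and KRT8 at 146 to 148 and 153 to 162 CPM. The groups overlapped for NEFL and LHX1. NEFM was at most 0.381 CPM and INA at most 0.0209 CPM. Of 11 markers of other cell types, 9 were at most 0.302 CPM. The exceptions were the collagen genes COL1A1, at 4.86 to 7.24 CPM, and COL3A1, at 9.39 to 9.90 CPM with DMSO and 5.18 to 5.73 CPM with GSK-A1. GSK-A1 replicate 2 stood apart: its correlation with the other libraries of its group over all tested genes was 0.995 and 0.994, against 0.997 between those libraries, and its mitochondrial share of counts was 4.04%, against 5.12% to 5.68% elsewhere. Its part in the results was not tested beyond fits without it, which are given where they change a call.

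Differences between GSK-A1 and DMSO were small for most of these genes and ran in both directions. Of the 36 that passed the filter on low counts, 6 rose and 5 fell at an adjusted p under 0.05 (edgeR quasi-likelihood test, Benjamini-Hochberg adjustment over all 16754 genes tested). That is 30.6%, and 22.9% of all tested genes were called by the same rule, 12% higher and 10.9% lower. The genes that rose were the hexokinases HK1 and HK2 and the HIF targets P4HA2, ANKRD37, KDM3A and BHLHE40. Those that fell were the glycolytic enzymes GPI, PFKL, TPI1, GAPDH and PKM. The median log2 fold change was 0.025 over the tested members and -0.011 over all tested genes. The GSK-A1 libraries lay wholly above the DMSO libraries for 12 members and wholly below for 11, and the groups overlapped for 13. Over all tested genes 40.5% did not overlap, 20.2% above and 20.4% below.

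Under upper-quartile factors the split of called members was 4 higher and 9 lower, and their median was -0.016. Without DMSO replicate 1 there were 5 called members, with 12.9% of all genes called, and without DMSO replicate 3 there were 6, with 12.7%. Without GSK-A1 replicate 2 there were 21 of 37 (56.8%, against 28.1% of all genes), 12 higher and 9 lower. The titles call the replicates biological and say no more of their cultures, so the p-values measure the spread between these samples only. In RNA from whole cultures, fewer cells of a type and less RNA per cell cannot be told apart.

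**Figure D1:**
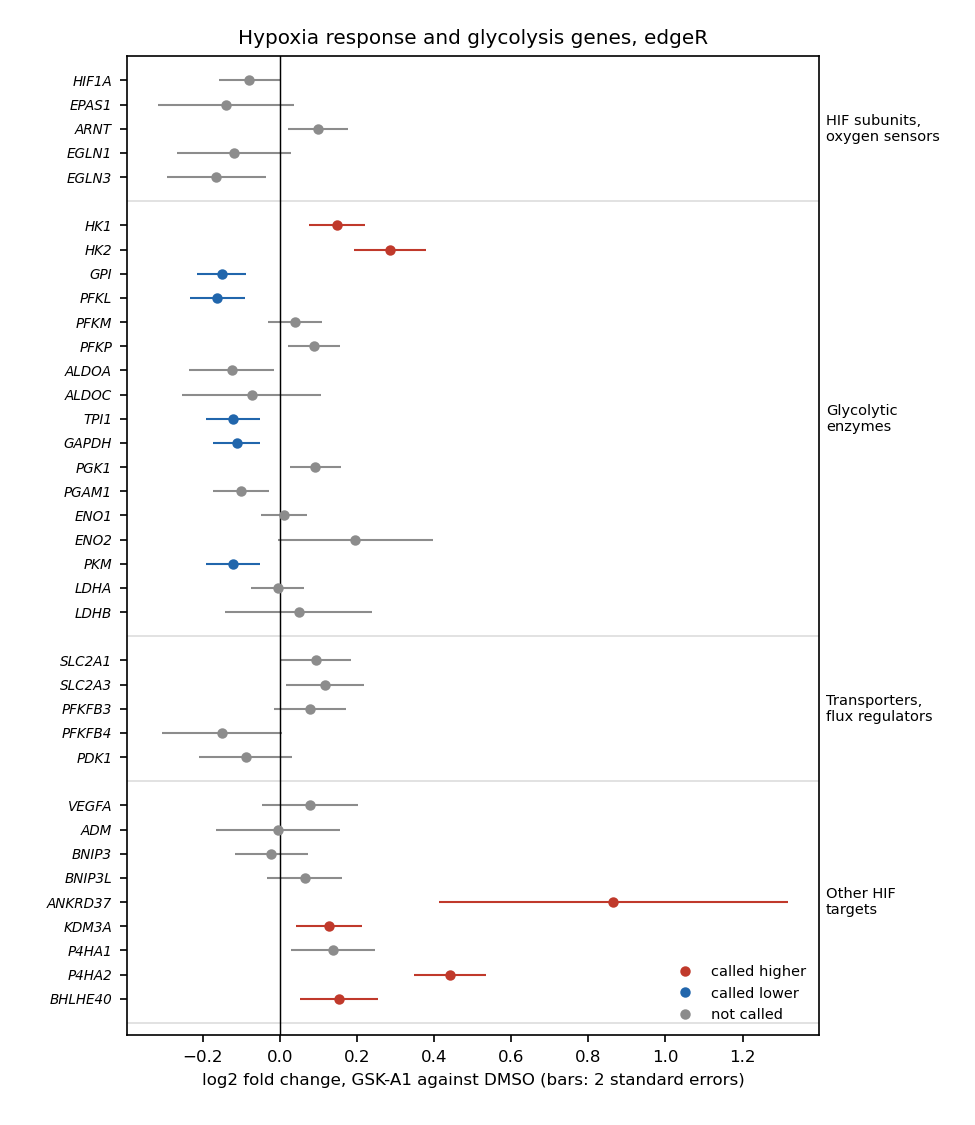
Log2 fold change of each tested gene with GSK-A1 against DMSO, by class, with bars of 2 standard errors and colour for the edgeR call. Among the glycolytic enzymes HK1 and HK2 lie right of zero and GPI, PFKL, TPI1, GAPDH and PKM left of it, while the 4 called genes among the other HIF targets lie on the right.

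None of the 5 genes for HIF subunits and oxygen sensors passed the threshold in the edgeR test, against 22.9% of all tested genes. Of the 5, 2 had an unadjusted p under 0.05. Values by library are given in the order of replicates 1, 2 and 3. HIF1A (ENSG00000100644), the widely expressed alpha subunit, was at 99.00, 97.2 and 97.2 CPM with DMSO and 92.1, 95.9 and 89.7 CPM with GSK-A1. The GSK-A1 libraries were all below the DMSO libraries, replicate 2 by the least, and the difference was -0.080 ± 0.04 on the log2 scale (SE), with an edgeR adjusted p of 0.158. HIF1A was called lower in the fit that omitted GSK-A1 replicate 2 (-0.10, edgeR adjusted p = 0.0149), with upper-quartile factors (-0.12, edgeR adjusted p = 0.0288) and with the GC trend of each library removed (-0.17, edgeR adjusted p = 5.65e-04). The GC content of the longest annotated HIF1A transcript, coding or not, is 36.4%, the lowest among the 38 genes. EPAS1 (ENSG00000116016), the alpha subunit of more restricted expression, was at 6.95, 6.68 and 7.48 CPM with DMSO and 6.65, 5.71 and 6.63 CPM with GSK-A1 (-0.14 ± 0.09, edgeR adjusted p = 0.272). GSK-A1 replicate 2 was its lowest library, and without it the value was -0.071. Per kilobase of exon, HIF1A made up 95.2% ± 0.28 with DMSO and 95.4% ± 0.51 with GSK-A1 of the summed level of these alpha subunits (SD, n = 3), and the groups overlapped.

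ARNT (ENSG00000143437), the beta subunit, was at 71.99, 71.5 and 70.2 CPM with DMSO and 75.5, 75.5 and 77.9 CPM with GSK-A1. All 3 GSK-A1 libraries were higher, and the difference missed the threshold (0.099 ± 0.04, edgeR adjusted p = 0.0787). The hydroxylase EGLN3, itself a HIF target in many cells, went from 13.7 ± 0.39 to 12.2 ± 0.5 CPM (SD, n = 3; -0.17 ± 0.06, edgeR adjusted p = 0.0732), without overlap, and EGLN1, the main oxygen sensor, from 12.3 ± 0.97 to 11.4 ± 0.59 CPM (-0.12 ± 0.07, edgeR adjusted p = 0.262), with overlap. In the fit that omitted GSK-A1 replicate 2, 3 of the 5 were called: HIF1A, ARNT (0.11, edgeR adjusted p = 0.0115) and EGLN3 (-0.17, edgeR adjusted p = 0.0471). That fit called 28.1% of all tested genes. Upper-quartile factors called EGLN3 as well (-0.21, edgeR adjusted p = 0.0285).

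The 17 glycolytic enzymes all passed the filter, and 7 were called (41.2%), 2 higher and 5 lower. Over all tested genes 22.9% were called, 12% higher and 10.9% lower. The median log2 fold change of the 17 enzymes was -0.0058, with 8 positive and 9 negative. The summed level of the enzymes was 11168, 10811 and 10760.0 CPM in the DMSO libraries and 10723, 10381 and 10342 CPM in the GSK-A1 libraries. The groups did not overlap in this sum, although GSK-A1 replicate 1 came close to the lower DMSO libraries, and the ratio of the means was 0.961. The sum is weighted towards abundant genes. It also carries the uncertainty of ALDOA, LDHB, PGAM1 and TPI1, whose sequence is in part shared with or overlapped by other genes. From DMSO to GSK-A1, GAPDH averaged 3672 and 3396 CPM, PKM 1013 and 931 CPM, and TPI1 908 and 834 CPM. ENO1 averaged 2639 and 2658 CPM. Without DMSO replicate 1, 4 enzymes were called, and without GSK-A1 replicate 2, 11 were (5 higher, 6 lower). Those fits called 12.9% and 28.1% of all tested genes.

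Hexokinases commit glucose to the pathway by phosphorylating it. HK2 (ENSG00000159399), the inducible hexokinase and a classical HIF target, was at 47.9, 47.6 and 48.9 CPM with DMSO and 56.2, 62.5 and 57.4 CPM with GSK-A1. Every GSK-A1 library was above every DMSO library, replicate 2 by the most. HK2 rose by 0.29 ± 0.05 on the log2 scale (SE; edgeR adjusted p = 4.91e-04), a 1.22-fold change. HK1 (ENSG00000156515), the constitutive isozyme, was at 159.5, 150.4 and 157 CPM with DMSO and 173, 173 and 172 CPM with GSK-A1. The GSK-A1 libraries lay close together above the DMSO libraries, and HK1 rose by 0.15 ± 0.04 (edgeR adjusted p = 0.00792). The call was lost without DMSO replicate 2, the lowest DMSO library (0.12, edgeR adjusted p = 0.0693). The HK2 share of the length-normalised hexokinase level was 23.8%, 24.8% and 24.4% with DMSO and 25.2%, 27.3% and 25.8% with GSK-A1.

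GPI and PFKL, which act after hexokinase, were lower. GPI (ENSG00000105220), which isomerises glucose 6-phosphate, was at 492, 491 and 495 CPM with DMSO and 453, 439 and 439 CPM with GSK-A1. The DMSO libraries lay close together, all above the GSK-A1 libraries (-0.15 ± 0.03, edgeR adjusted p = 0.00301). PFKL (ENSG00000141959), the liver-type subunit of phosphofructokinase, the main control step of glycolysis, was at 271, 274 and 264 CPM with DMSO and 248, 235 and 240.4 CPM with GSK-A1 (-0.16 ± 0.04, edgeR adjusted p = 0.00381). The groups did not overlap. The GC content of the longest annotated PFKL transcript is 64.1%, the highest among the 38 genes. After GC correction the change was -0.090 (edgeR adjusted p = 0.0385), and the part of GC content was not tested further.

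The other phosphofructokinase genes did not pass the threshold, and their values lay on the other side of zero, except PFKM under upper-quartile factors (-0.0023). PFKP, the platelet-type subunit, was at 180.3, 182 and 177 CPM with DMSO and 190.2, 193 and 191 CPM with GSK-A1 (0.088 ± 0.03, edgeR adjusted p = 0.0727). PFKM, the muscle-type subunit, was at 125, 126 and 125 CPM with DMSO and 128, 129 and 129 CPM with GSK-A1 (0.039 ± 0.04, edgeR adjusted p = 0.467). In both genes the GSK-A1 libraries were all higher, and PFKP was called in the fit that omitted GSK-A1 replicate 2 (0.087, edgeR adjusted p = 0.0182) and after GC correction (0.14, edgeR adjusted p = 0.00392). Per kilobase of exon, PFKL made up 35.9%, 35.9% and 35.5% with DMSO and 32.9%, 31.4% and 32.04% with GSK-A1 of the phosphofructokinase level. PFKP made up 44.00%, 44.03% and 43.98% with DMSO and 46.5%, 47.5% and 47.02% with GSK-A1, a difference of 3.01 percentage points. These shares are a description and were not tested.

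**Figure D2:**
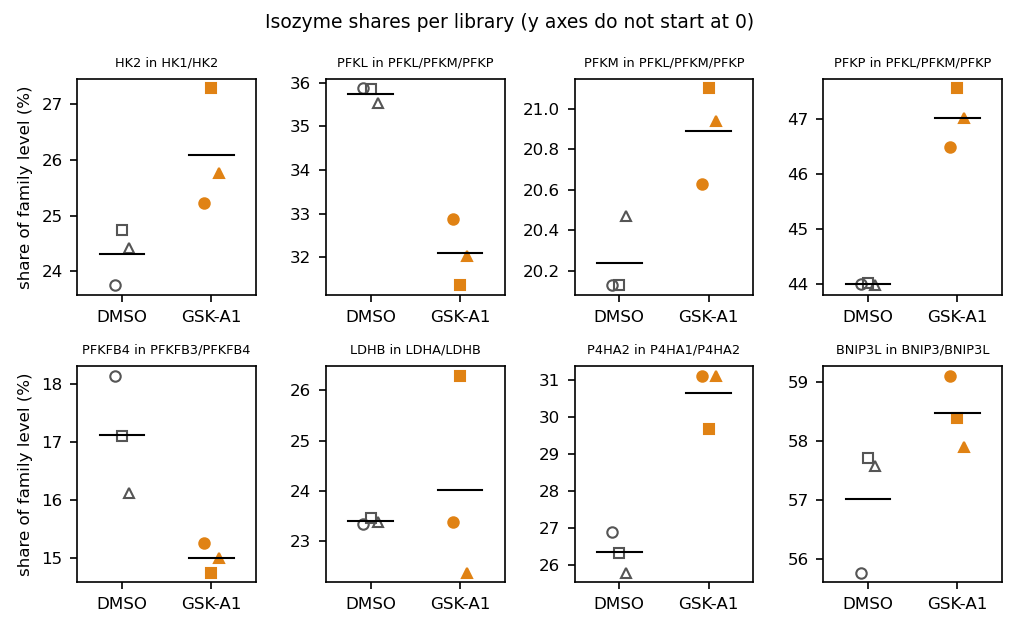
Share of a gene in the summed length-normalised level of its family, in percent, in each library (open grey, DMSO; filled orange, GSK-A1; circle, square and triangle for replicates 1, 2 and 3; lines, group means; y axes do not start at zero). The PFKP and P4HA2 shares are higher and the PFKL and PFKFB4 shares lower in every GSK-A1 library, while the LDHB share is high in GSK-A1 replicate 2 alone.

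Further down the pathway GAPDH, TPI1 and PKM were lower. GAPDH (ENSG00000111640), which oxidises glyceraldehyde 3-phosphate and often serves as a reference gene, was at 3758, 3644 and 3613 CPM with DMSO and 3509, 3305 and 3374 CPM with GSK-A1 (-0.11 ± 0.03, edgeR adjusted p = 0.0134). TPI1 (ENSG00000111669), triose phosphate isomerase, was at 951, 879.5 and 894 CPM with DMSO and 857, 826 and 820.5 CPM with GSK-A1 (-0.12 ± 0.04, edgeR adjusted p = 0.0193). PKM (ENSG00000067225), pyruvate kinase, was at 1061, 978 and 999 CPM with DMSO and 956, 913 and 925 CPM with GSK-A1 (-0.12 ± 0.04, edgeR adjusted p = 0.0210). In each of the 3 genes the groups did not overlap and DMSO replicate 1 was the highest library. Without DMSO replicate 1 the edgeR adjusted p was 0.0822 for GAPDH, 0.125 for TPI1 and 0.135 for PKM. All 3 calls were also lost without GSK-A1 replicate 3 (edgeR adjusted p = 0.0520, 0.0677 and 0.0583), and those of TPI1 and PKM without DMSO replicate 3 (edgeR adjusted p = 0.0598 and 0.0643). With the GC trend removed, GAPDH was at -0.055, edgeR adjusted p = 0.181, and TPI1 at -0.071, edgeR adjusted p = 0.129. The GC contents of the longest annotated transcripts of GAPDH and TPI1 are 58.8% and 57.4%.

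PGK1 and PGAM1 catalyse successive steps and lay just outside the threshold on opposite sides of zero. PGK1, phosphoglycerate kinase, was at 486, 486 and 469 CPM with DMSO and 519.9, 515 and 500.4 CPM with GSK-A1 (0.091 ± 0.03, edgeR adjusted p = 0.0547). PGAM1, phosphoglycerate mutase, was at 218, 220.1 and 211 CPM with DMSO and 207, 202 and 196 CPM with GSK-A1 (-0.10 ± 0.04, edgeR adjusted p = 0.0547). In neither gene did the groups overlap. Both were called once GSK-A1 replicate 2 was omitted (edgeR adjusted p = 0.00869 for PGK1 and 0.0115 for PGAM1), and PGK1 also without GSK-A1 replicate 3 (0.11, edgeR adjusted p = 0.0438). PGK1 was called with RLE factors (edgeR adjusted p = 0.0450), by DESeq2 (0.0475) and by limma-voom (0.0489). PGAM1 was called with upper-quartile factors (edgeR adjusted p = 0.00862), with library totals only (0.0442) and with a filter at a mean of 1 CPM (0.0350). With the replicate block both were called (edgeR adjusted p = 0.0465 and 0.0419).

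The abundant enolase and the lactate dehydrogenases were not called. ENO1, the enolase, averaged 2639 ± 62.5 CPM with DMSO and 2658 ± 50.3 CPM with GSK-A1 (SD, n = 3), and an interval of 2 standard errors ran from -0.048 to 0.069 on the log2 scale. LDHA, a classical HIF target, averaged 592 ± 8.68 and 590.1 ± 21.4 CPM, with an interval from -0.074 to 0.063. LDHB, which favours the return of lactate to pyruvate, was at 85.9, 88.7 and 86.1 CPM with DMSO and 86.6, 105 and 78.7 CPM with GSK-A1. GSK-A1 replicate 2 alone was high in LDHB, and without it the log2 fold change went from 0.049 ± 0.10 to -0.065.

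The isozymes ENO2 and ALDOC, known from neurons, overlapped between the groups. ENO2 averaged 6.98 ± 0.45 CPM with DMSO and 7.94 ± 1.23 CPM with GSK-A1 (0.20 ± 0.10, edgeR adjusted p = 0.175), and it was called once GSK-A1 replicate 2 was omitted (0.29, edgeR adjusted p = 0.00775). ALDOC averaged 7.71 ± 0.61 and 7.32 ± 0.72 CPM (-0.073 ± 0.09, edgeR adjusted p = 0.602). ALDOA, the main aldolase of most cells, averaged 19.1 ± 0.42 and 17.5 ± 0.29 CPM without overlap (-0.12 ± 0.06, edgeR adjusted p = 0.116), and upper-quartile factors called it lower (-0.16, edgeR adjusted p = 0.0392).

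Per kilobase of exon in GENCODE 29, GAPDH led the enzymes in the DMSO libraries at 1232 ± 25.6 CPM per kilobase (RPKM; SD, n = 3). ENO1 followed at 500.2 ± 11.8, TPI1 at 336 ± 13.9, PKM at 118 ± 5.05, LDHA at 95.4 ± 1.40, PGK1 at 87.1 ± 1.70 and PGAM1 at 84.2 ± 1.98 RPKM. The DMSO libraries of PGK1 (85.2 to 88.1 RPKM) and PGAM1 (81.99 to 85.7 RPKM) overlapped, and the genes stood at 92.8 ± 1.85 and 78.5 ± 2.15 RPKM with GSK-A1. HK2 was at 7.94 ± 0.11 and ALDOA at 4.88 ± 0.11 RPKM with DMSO, and ALDOC at 2.63 ± 0.21 and ENO2 at 1.63 ± 0.1 RPKM were the lowest. The level of ALDOA is uncertain, because 42.3% of its exonic length overlaps another gene model on the same strand and 52.3% of its 50-base stretches occur in other genes. LDHB, with 33.4% of its exonic length under another same-strand model, PGAM1, with 43.1% of its 50-base stretches shared, and TPI1, with 20.8% shared, carry the same limit.

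None of the 5 tested transporters and flux regulators was called by edgeR, against 22.9% of all tested genes. Of the 5, 1 had an unadjusted p under 0.05. Their median log2 fold change was 0.078. SLC2A1, the basal glucose transporter, averaged 54.3 ± 2.77 CPM with DMSO and 57.9 ± 0.56 CPM with GSK-A1 (SD, n = 3; 0.093 ± 0.05, edgeR adjusted p = 0.155). SLC2A3, a high-affinity glucose transporter, averaged 27.2 ± 0.58 and 29.5 ± 0.99 CPM (0.12 ± 0.05, edgeR adjusted p = 0.103). The groups overlapped for SLC2A1 and not for SLC2A3. The level of SLC2A3 is less certain, because 21.4% of its 50-base stretches occur in other genes, mostly SLC2A14. SLC16A3, the lactate exporter induced by HIF, failed the filter with 6 to 13 counts per library.

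PFKFB3 and PFKFB4 set the amount of fructose 2,6-bisphosphate, the activator of phosphofructokinase. PFKFB3 averaged 37.4 ± 1.40 CPM with DMSO and 39.4 ± 0.48 CPM with GSK-A1 (0.078 ± 0.05, edgeR adjusted p = 0.241), and PFKFB4 averaged 7.70 ± 0.26 and 6.94 ± 0.22 CPM (-0.15 ± 0.08, edgeR adjusted p = 0.175). Neither gene overlapped between the groups, and the PFKFB4 share of their summed length-normalised level was 18.1%, 17.1% and 16.1% with DMSO and 15.2%, 14.7% and 14.99% with GSK-A1. PDK1, the kinase that keeps pyruvate out of the mitochondrial cycle, was at 43.5, 45.04 and 43.97 CPM with DMSO and 39.9, 46.5 and 38.4 CPM with GSK-A1. GSK-A1 replicate 2 was the highest library for PDK1 and the other GSK-A1 libraries were the lowest (-0.089 ± 0.06, edgeR adjusted p = 0.312). Without that replicate, 2 of 6 were called, PDK1 (-0.17, edgeR adjusted p = 0.00121) and SLC2A1 (0.10, edgeR adjusted p = 0.0392), with 28.1% of all tested genes. With the GC trend removed, 3 were called: PDK1 (-0.15, edgeR adjusted p = 0.0123), SLC2A1 (0.13, edgeR adjusted p = 0.0187) and PFKFB3 (0.12, edgeR adjusted p = 0.0350). That fit called 26.3% of all tested genes.

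Among the other HIF targets, 4 of 9 tested rose and 0 fell (44.4%, against 22.9% of all tested genes). The median log2 fold change of these 9 was 0.13, with 7 positive and 2 negative. Their summed level was 335, 357 and 344 CPM with DMSO and 380.3, 380.3 and 380.0 CPM with GSK-A1. P4HA2 (ENSG00000072682), a catalytic subunit of collagen prolyl 4-hydroxylase, was at 42.5, 46.8 and 43.8 CPM with DMSO and 61.1, 61.2 and 58.5 CPM with GSK-A1. The groups were far apart compared with their spread. P4HA2 rose by 0.44 ± 0.05 (edgeR adjusted p = 8.43e-06), a 1.36-fold change, with the smallest p among the members. P4HA1, the alternative catalytic subunit, was at 42.00, 47.7 and 45.9 CPM with DMSO and 49.2, 52.8 and 47.1 CPM with GSK-A1, with overlap between the groups (0.14 ± 0.05, edgeR adjusted p = 0.0801); omitting GSK-A1 replicate 3 led to a call (0.18, edgeR adjusted p = 0.0332). The P4HA2 share of the length-normalised pair was 26.9%, 26.3% and 25.8% with DMSO and 31.1%, 29.7% and 31.1% with GSK-A1.

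ANKRD37 (ENSG00000186352), an ankyrin-repeat gene known as a HIF target, was the lowest tested member, at 0.521, 0.637 and 0.453 CPM with DMSO and 1.18, 0.879 and 0.860 CPM with GSK-A1. Its log2 fold change of 0.86 ± 0.23 was the largest among the members (edgeR adjusted p = 0.0119), with GSK-A1 replicate 1 the highest library. The call was lost without DMSO replicate 1 (0.83, edgeR adjusted p = 0.0597), without DMSO replicate 3 (0.78, edgeR adjusted p = 0.0533) and when GSK-A1 replicate 1 was omitted (0.68, edgeR adjusted p = 0.0848). UFSP2 lies on the opposite strand over 35.2% of the exonic length of ANKRD37 and averaged 18.4 CPM with DMSO and 18.9 CPM with GSK-A1. The strand setting of the counting was not given in the sources used here, so reads of UFSP2 within the ANKRD37 count cannot be told apart.

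KDM3A, a histone demethylase, was at 50.2, 51.2 and 50.2 CPM with DMSO and 53.8, 57.03 and 54.9 CPM with GSK-A1 (0.13 ± 0.04, edgeR adjusted p = 0.0401). BHLHE40, a transcriptional repressor, was at 28.4, 31.2 and 30.00 CPM with DMSO and 33.7, 32.9 and 32.98 CPM with GSK-A1 (0.15 ± 0.05, edgeR adjusted p = 0.0369). Both calls were close to the threshold, although the groups did not overlap. KDM3A lost its call without any 1 library other than GSK-A1 replicate 2 (edgeR adjusted p = 0.0522 to 0.139), under upper-quartile factors (0.087, edgeR adjusted p = 0.139), with library totals only (0.12, edgeR adjusted p = 0.0587) and after GC correction (0.087, edgeR adjusted p = 0.0656), and DESeq2 gave an adjusted p of 0.0504. BHLHE40 lost its call under upper-quartile factors (0.11, edgeR adjusted p = 0.117) and when replicate 1 or 3 of DMSO (edgeR adjusted p = 0.183 and 0.105) or of GSK-A1 (0.104 and 0.0517) was omitted. In all, 1 of the 9 was called when replicate 1 of either group or DMSO replicate 3 was omitted, and that gene was P4HA2. The shares of all tested genes called were 12.9% without DMSO replicate 1, 15.9% without GSK-A1 replicate 1 and 12.7% without DMSO replicate 3.

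The remaining HIF targets did not pass the threshold. VEGFA, the vascular growth factor, was at 75.6, 79.5 and 78.5 CPM with DMSO and 84.4, 72.6 and 89.5 CPM with GSK-A1 (0.079 ± 0.06, edgeR adjusted p = 0.400). GSK-A1 replicate 2 was the lowest of all 6 libraries, the other GSK-A1 libraries were the highest, and VEGFA was called higher when replicate 2 was omitted (0.16, edgeR adjusted p = 1.97e-04). The mitophagy receptors BNIP3 and BNIP3L averaged 43.4 ± 1.22 and 46.5 ± 2.00 CPM with DMSO, and 42.8 ± 1.88 and 48.7 ± 2.08 CPM with GSK-A1. Their intervals of 2 standard errors ran from -0.12 to 0.072 and from -0.033 to 0.16 on the log2 scale. ADM, the vasodilator adrenomedullin, averaged 7.29 ± 0.47 and 7.24 ± 0.059 CPM, with an interval from -0.16 to 0.16. CA9, a carbonic anhydrase that is nearly silent without HIF in most cells, had 0 to 2 counts per library and failed the filter.

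**Figure D3:**
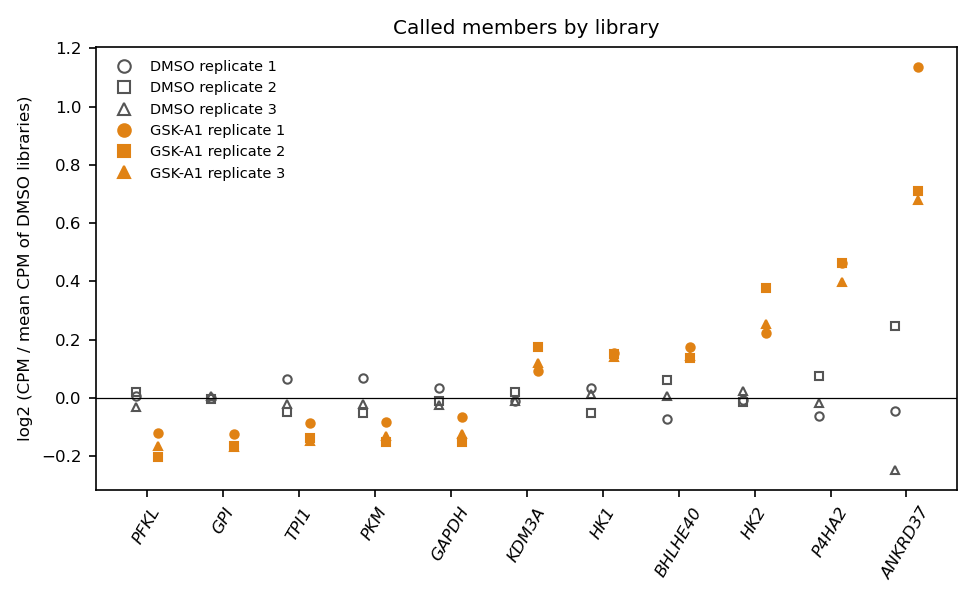
The 11 called members in each library, as log2 of CPM over the mean CPM of the DMSO libraries (open grey, DMSO; filled orange, GSK-A1; circle, square and triangle for replicates 1, 2 and 3). In all 11 the GSK-A1 libraries lie on one side of the DMSO libraries, with HK2, P4HA2 and ANKRD37 furthest from zero.

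P4HA2, HK2, PFKL and GPI were the members whose call held under every alternative analysis run, and the 250 bases before their RefSeq start are shown to set genes that rose beside genes that fell. The sequences are RefSeq promoters of build GRCh38.p14, written 5′ to 3′ on the gene's strand. Capitals mark the core of the hypoxia response element, ACGTG or GCGTG, on either strand, read as CACGT or CACGC where it lies on the strand not shown. P4HA2 (chr5:132227092-132227341, minus strand) held 0 matches and HK2 (chr2:74833877-74834126, plus strand) held 3. PFKL (chr21:44299803-44300052, plus strand) held 1, as did GPI (chr19:34364742-34364991, plus strand).
P4HA2: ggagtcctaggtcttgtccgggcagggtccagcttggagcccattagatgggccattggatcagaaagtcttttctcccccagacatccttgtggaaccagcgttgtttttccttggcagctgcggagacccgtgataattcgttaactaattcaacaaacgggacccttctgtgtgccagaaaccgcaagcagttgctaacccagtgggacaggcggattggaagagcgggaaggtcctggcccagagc
HK2: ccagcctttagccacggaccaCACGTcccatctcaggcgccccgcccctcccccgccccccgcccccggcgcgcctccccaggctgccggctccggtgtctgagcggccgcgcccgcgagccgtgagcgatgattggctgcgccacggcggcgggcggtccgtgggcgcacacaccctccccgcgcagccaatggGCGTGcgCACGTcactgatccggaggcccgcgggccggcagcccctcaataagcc
PFKL: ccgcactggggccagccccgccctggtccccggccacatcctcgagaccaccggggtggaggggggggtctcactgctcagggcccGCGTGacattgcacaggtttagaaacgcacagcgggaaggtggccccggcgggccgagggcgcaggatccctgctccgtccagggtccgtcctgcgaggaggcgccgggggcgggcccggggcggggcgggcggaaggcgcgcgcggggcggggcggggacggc
GPI: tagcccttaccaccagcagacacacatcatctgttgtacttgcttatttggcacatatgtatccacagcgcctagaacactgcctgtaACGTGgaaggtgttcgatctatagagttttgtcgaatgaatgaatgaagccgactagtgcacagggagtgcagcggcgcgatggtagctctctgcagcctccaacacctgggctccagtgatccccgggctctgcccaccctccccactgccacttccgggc

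The RefSeq start lies inside the GENCODE 29 gene model used elsewhere here, by 68224 bases from its 5′ end for P4HA2 and by 5512 bases for GPI. It lies within 146 bases for HK2 and 2 bases for PFKL, and over 1000 bases inside for 11 of the 35 members with a promoter. Matches occurred in genes of both directions. A match is a string of letters, not a measured binding site. Promoters were found for 35 members, all but SLC2A3, VEGFA and BNIP3L. At least 1 match was held by 22 of the 35 (62.9%), against 57.1% of the 11521 promoters of tested genes and 43.1% of all 27305 promoters of that length. The median GC content of these sets fell in the same order, at 68.4%, 65.2% and 58.0%. The motif itself holds a CG, and the part of GC content was not tested. By class, matches were held by 7 of 8 other HIF targets, 10 of 17 glycolytic enzymes, 3 of 5 HIF subunits and sensors and 2 of 5 transporters and flux regulators. By call, they were held by 4 of 6 genes that rose, 3 of 5 that fell and 14 of 22 that were tested and not called. A palindromic CACGTG counts on both strands.

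Other genes of the same pathways were read from lists drawn up from textbook knowledge, with earlier results of these data known. Of 15 tested regulators of the HIF pathway, 0 rose and 3 fell (20%, against 22.9% of all tested genes). CITED2, a HIF target that competes with HIF for its coactivators, went from 41.2 ± 1.20 to 35.9 ± 0.88 CPM (SD, n = 3; -0.20 ± 0.05, edgeR adjusted p = 0.00556). ARNT2, a paralog of ARNT, went from 25.6 ± 1.13 to 22.4 ± 0.85 CPM (-0.19 ± 0.06, edgeR adjusted p = 0.0187). ELOB, a subunit of the ligase that marks HIF alpha for destruction, went from 131 ± 3.27 to 118 ± 5.83 CPM (-0.15 ± 0.04, edgeR adjusted p = 0.0196). Without DMSO replicate 3, 1 of the 3 was called. ARNT2 was also lost without DMSO replicate 2 (edgeR adjusted p = 0.110) and ELOB without DMSO replicate 1 (0.106).

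Of 27 further HIF targets tested, 7 rose and 3 fell (37%, against 22.9% of all tested genes), with a median log2 fold change of 0.021. NDRG1, a stress-responsive gene, went from 313 ± 5.81 to 547 ± 8.01 CPM (0.81 ± 0.03, edgeR adjusted p = 5.78e-11). TFRC, the transferrin receptor, went from 151 ± 7.38 to 231 ± 12.5 CPM (0.61 ± 0.05, edgeR adjusted p = 1.68e-07). ERO1A, an oxidase of protein folding, went from 95.7 ± 3.83 to 123 ± 9.37 CPM (0.36 ± 0.05, edgeR adjusted p = 1.52e-04). BHLHE41, MXI1, VLDLR and PLOD2 also rose, by 0.31, 0.18, 0.17 and 0.15 on the log2 scale. MXI1 lost its call without DMSO replicate 1, VLDLR without DMSO replicate 1 or 3 or GSK-A1 replicate 1 or 3, and PLOD2 without any 1 library other than GSK-A1 replicate 3. Under upper-quartile factors VLDLR (0.13, edgeR adjusted p = 0.0990) and PLOD2 (0.11, edgeR adjusted p = 0.127) were lost, as they were after GC correction (0.14, edgeR adjusted p = 0.0603; 0.047, edgeR adjusted p = 0.339), and PLOD2 was also lost with library totals only, with the 1 CPM filter and by limma-voom. The split of this list was 5 higher and 5 lower under upper-quartile factors.

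The 3 further HIF targets that fell were DDIT4, HMOX1 and PPFIA4. DDIT4, an inhibitor of mTORC1 signalling, went from 168 ± 4.92 to 128 ± 3.08 CPM (-0.38 ± 0.04, edgeR adjusted p = 4.15e-06). HMOX1, heme oxygenase, went from 20.1 ± 3.07 to 13.2 ± 0.47 CPM (-0.61 ± 0.10, edgeR adjusted p = 9.68e-04). PPFIA4, a liprin family member, went from 7.32 ± 0.28 to 5.93 ± 0.45 CPM (-0.29 ± 0.09, edgeR adjusted p = 0.0206), and its call was lost without DMSO replicate 2 (0.0736) or DMSO replicate 3 (0.0815). An antisense gene lies opposite 41.2% of the exonic length of DDIT4.

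Of 14 further glycolysis genes tested, 1 rose and 1 fell (14.3%, against 22.9% of all tested genes). SLC2A12, a glucose transporter, went from 29.8 ± 1.45 to 34.9 ± 0.6 CPM (0.23 ± 0.05, edgeR adjusted p = 0.00363), and PFKFB2, a paralog of PFKFB3, from 11.4 ± 0.54 to 9.52 ± 0.59 CPM (-0.26 ± 0.07, edgeR adjusted p = 0.0157). TBPL1 lies opposite 38.9% of the exonic length of SLC2A12. Omitting GSK-A1 replicate 2 gave 4 calls, omitting GSK-A1 replicate 3 gave 5 and omitting DMSO replicate 1 gave 1. Those fits called 28.1%, 21.9% and 12.9% of all tested genes. PFKFB2 was lost without DMSO replicate 1 (edgeR adjusted p = 0.0897) or GSK-A1 replicate 1 (0.0521).

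Around the entry of pyruvate into mitochondria, 4 of 13 tested genes rose and 2 fell (46.2%, against 22.9% of all tested genes). PDK2, a kinase that switches pyruvate dehydrogenase off, went from 34.5 ± 0.35 to 26.8 ± 0.53 CPM (-0.37 ± 0.05, edgeR adjusted p = 5.81e-05). PDP1, a phosphatase that switches it on, went from 10.01 ± 0.8 to 12.9 ± 0.84 CPM (0.37 ± 0.08, edgeR adjusted p = 0.00234). PDHX, a structural subunit of the complex, went from 33.5 ± 1.23 to 39.4 ± 2.31 CPM (0.23 ± 0.05, edgeR adjusted p = 0.00523), and PDHA1, a catalytic subunit, from 193 ± 1.78 to 174 ± 3.57 CPM (-0.15 ± 0.03, edgeR adjusted p = 0.00690). PDP2, a paralog of PDP1, also rose (0.14 ± 0.05, edgeR adjusted p = 0.0449). So did PDPR, a regulatory subunit of the phosphatase and not itself a phosphatase (0.14 ± 0.05, edgeR adjusted p = 0.0439). PDP2 and PDPR each lost the call without any 1 library other than GSK-A1 replicate 2. Both were also lost under upper-quartile factors (edgeR adjusted p = 0.152 and 0.149), with library totals only, with the 1 CPM filter and by DESeq2, and PDP2 after GC correction (0.0590). SAMD14 lies opposite 38.5% of the exonic length of PDK2, and MAP3K15 opposite 21.3% of that of PDHA1.

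In the pentose phosphate pathway, which branches from glycolysis, 5 of 7 tested genes were called, 3 lower and 2 higher. That is 71.4%, against 22.9% of all tested genes. PGD and PGLS of the oxidative branch fell. PGD went from 327 ± 5.63 to 299 ± 3.87 CPM (-0.13 ± 0.03, edgeR adjusted p = 0.0101) and PGLS from 52.3 ± 2.20 to 47.1 ± 1.06 CPM (-0.15 ± 0.05, edgeR adjusted p = 0.0239). TALDO1 of the non-oxidative branch fell as well (-0.12 ± 0.04, edgeR adjusted p = 0.0294), while RPE (0.18 ± 0.05, edgeR adjusted p = 0.0125) and RPIA (0.15 ± 0.05, edgeR adjusted p = 0.0295), which interconvert pentose phosphates, rose. All 5 calls were lost without DMSO replicate 1 (edgeR adjusted p = 0.0587 for PGD to 0.108 for TALDO1), where 1 other gene of the list was called, and all 5 without DMSO replicate 2 (edgeR adjusted p = 0.0502 for PGD to 0.140 for PGLS). Of the 5, RPE alone kept its call when GSK-A1 replicate 1 was omitted. Without DMSO replicate 3 there were 3 calls, as TALDO1 and RPIA were lost, without GSK-A1 replicate 2 there were 6, and GC correction left 2. Those fits called 12.7%, 28.1% and 26.3% of all tested genes.

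**Figure D4:**
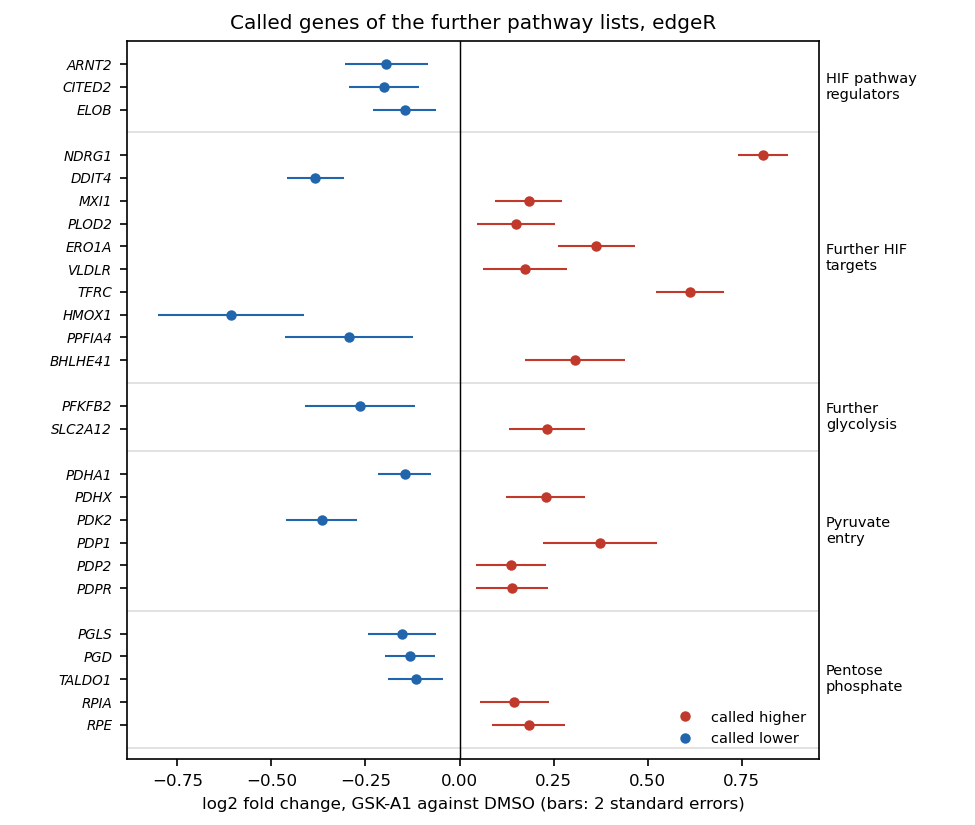
Log2 fold change of the called genes of the further pathway lists with GSK-A1 against DMSO, with bars of 2 standard errors and colour for direction. Further HIF targets lie on both sides of zero, from HMOX1 at -0.61 to NDRG1 at 0.81, and the pentose phosphate genes divide into 3 lower and 2 higher.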

How the data were processed

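RNA sequencing of 6 HEK293 libraries was analysed, 3 per group by the sample titles. The values deposited by the authors were whole-number counts of reads per gene, not normalized. The submitters' processing notes name cutadapt 5.1, STAR 2.7.11b, featureCounts, Subread 2.1.1, DESeq2 1.38.0 and GRCh38.p13, with no roles; annotation release, strand setting and filters were not given in the sources used here. The library kit kept strand, per the labels' protocols.

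Genes were filtered with filterByExpr (smallest count 10, smallest total 15), scaled by trimmed mean of M values and tested with edgeR 4.0.16 in R 4.3.3 (robust quasi-likelihood F test, 6 libraries, no covariate), with p-values adjusted over 16754 genes. The SE is the log2 change over the root of F. CPM use scaled totals. ± is an SE after a log2 change and otherwise an SD over 3 libraries. RPKM, shares, overlaps and shared stretches use GENCODE 29, possibly not the authors' annotation. The code was tested on simulated counts with 200 of 16754 genes changed, where 9.66% of calls were false, above the nominal level. In the data 3835 genes were called, and whether that share holds for them was not tested. Calls close to the threshold should be read as less certain than their adjusted p states. Alternatives were DESeq2 1.42.0, limma-voom (limma 3.58.1), other factors, filters, lengths and threshold, the replicate block and fits without 1 library; removal of a GC trend was added after the data were seen.

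Members, lists and the naming rule were chosen with earlier results of these data known. The rule named called members, HIF subunits, GAPDH and families with a called member, and up to 3 called genes per direction from each further list; other genes were named after their values were seen. One gene of the further lists is not reported here, and the counts of its list leave it out.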

Additional observations from a re-analysis of the deposited data

How the results depend on the processing

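The 36 tested members gave 574 values under 16 alternatives: 493 kept direction and side of the threshold, 34 lost a call, 30 gained one and 17 changed sign. HK2, P4HA2, GPI and PFKL kept their call in all 16, and 7 other members lost theirs in at least 1. The counts depended on which library was in the fit. Fits without 1 library called 2163 to 4890 genes in all (3835 with 6 libraries; 4890, more than with all 6, without GSK-A1 replicate 2), 0 to 3 HIF subunits and sensors, 4 to 11 glycolytic enzymes, 0 to 2 transporters and flux regulators, 1 to 5 other HIF targets, 1 to 3 HIF pathway regulators, 1 to 5 further glycolysis genes and 0 to 6 pentose phosphate genes. An adjusted p under 0.01 left 1871 genes in all, 4 glycolytic enzymes, 1 other HIF target, 1 HIF pathway regulator, 1 further glycolysis gene and 0 pentose phosphate genes. Upper-quartile factors called 2 HIF subunits and sensors, 2 other HIF targets and 5 further glycolysis genes, and 33.3% of all calls were then higher, against 52.3%. Upper-quartile factors moved the median of all genes to -0.0513. Removal of the GC trend called 1 HIF subunit, 3 transporters and flux regulators and 2 pentose phosphate genes. DESeq2 called 2 other HIF targets, and gave ANKRD37 no adjusted p. The pyruvate entry list had 4 calls in place of 6 under upper-quartile factors, library totals, the 1 CPM filter and DESeq2. The cause of these shifts was not tested, apart from the stricter threshold.

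The median log2 fold change of HIF subunits and sensors was -0.16 under upper-quartile factors, -0.15 after GC correction and -0.13 to -0.071 without 1 library. That of glycolytic enzymes changed sign, at 0.00080 with RLE factors, 0.0030 without a count filter, 0.00077 with DESeq2 and -0.043 to 0.024 without 1 library. That of transporters and flux regulators was 0.038, 0.094 and 0.099 under upper-quartile factors, no count filter and GC correction, and 0.049 to 0.094 without 1 library. That of other HIF targets was 0.087 under upper-quartile factors, 0.087 after GC correction and 0.086 to 0.15 without 1 library. The P4HA2 share differed by 5.27 points without length and 5.27 with the longest coding transcript. Without 1 library the share differed by -0.318 to 1.68 points for ALDOC, -0.517 to 1.44 for LDHB, -0.423 to 0.918 for SLC2A3, -0.391 to 0.0701 for EPAS1 and -2.39 to 0.194 for EGLN3.

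Members that changed sign, none of them called with 6 libraries, were PFKM (-0.0023) and ENO1 (-0.030) under upper-quartile factors, BNIP3L after GC correction (-0.0080), LDHA with RLE factors (0.00080), without a count filter (0.0030) and with DESeq2 (0.00077), and ADM with RLE factors (0.0017), without a count filter (0.0047) and after GC correction (0.048). Without 1 library the values ran from -0.027 to 0.024 for LDHA, -0.065 to 0.14 for LDHB, -0.058 to 0.031 for ADM and -0.056 to 0.011 for BNIP3.

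The titles do not say whether same-numbered libraries were paired. The deviations of same-numbered libraries from their group means correlated at 0.0109, 0.0190 and 0.0323, and those of other pairs at -0.0331 to 0.0117. GSK-A1 replicates 2 and 3 correlated best with the DMSO library of the same number, and GSK-A1 replicate 1 with DMSO replicate 2 (0.0117). Whether the libraries were paired was not tested. With the replicate block, 4127 genes (24.6%) and 14 members (38.9%) were called. The members were 8 higher and 6 lower, among them 9 glycolytic enzymes and 5 other HIF targets.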
